A study of Homo sapiens with 18 samples.

Results

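The genes described here are the zinc finger genes whose symbol is ZNF followed by digits and whose first listed exon lies on chromosomes 1 to 18 or 20 to 22, that is, outside chromosome 19, where the largest group of this family sits. The rule used only symbol and position, and it took 226 genes of the 60603 in each count table. Another 241 ZNF genes lie on chromosome 19 and 10 on X or Y. The genes were measured by RNA sequencing in MDA-MB-231, an established human triple-negative breast cancer line, in 9 conditions of 2 libraries each. The study asked how doxorubicin, which traps topoisomerase II on DNA, changes expression, and how ZMYND8, a chromatin reader protein, alters that response.

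In the transient experiment, the control cells were left untreated, a second condition received 0.6 µM doxorubicin for 48 h, and another was labelled as transfected with FLAG-tagged ZMYND8 and then treated with the same dose for 48 h. In the inducible experiment, cells carried a lentiviral, doxycycline-responsive cassette for GFP or for ZMYND8. All 12 inducible libraries were from cells given 250 ng/mL doxycycline, including those called untreated here, and the treated cells received 0.6 µM doxorubicin for 6 or 48 h, begun 4 h after doxycycline. There was 1 selected line for GFP and 1 for ZMYND8, so line and construct cannot be told apart. The libraries are labelled as replicates, and with 2 per condition every p-value measures only the spread between such pairs.

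C2H2 zinc fingers are small zinc-binding folds, and strings of them read DNA sequence. Many ZNF proteins also carry a KRAB domain, which recruits TRIM28 and the histone methyltransferase SETDB1 and so silences transposable elements and genes. Others carry a SCAN domain, through which they pair with one another, and some have lost the link to DNA and act in ribosome assembly, RNA handling or DNA repair. ZNF687, ZNF592 and ZNF532 are known to form a complex with ZMYND8.

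By letter patterns in the translated reference coding sequences, the 226 genes had a median of 9 fingers with a range of 0 to 36, against 12 on chromosome 19. ZNF142 had the most. No finger was matched in 9 genes, which were ZNF330, ZNF365, ZNF474, ZNF487, ZNF503, ZNF703, ZNF750, ZNF839 and ZNF862. The KRAB pattern was found in 77 genes (34.1%), compared with 179 (74.6%) on chromosome 19. A total of 82 genes lay in 15 clusters of at least 3 with gaps of at most 250 kb. Chromosome 7 held 34 of the genes and chromosome 16 held 29.

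Promoter windows from 250 bases before to 50 after the start were matched for 187 of the 226 genes in the RefSeq (GRCh38.p14) promoter table used here. The letters CCAAT, read on both strands, occurred in 44.9% of these windows and in 35.7% of all 27305 promoter windows. An E2F-like string (TTTCCCGC or TTTGGCGC, both strands) occurred in 4.81% against 2.31%. The ETS-like string CCGGAAGT occurred in 15.5% against 4.44%, and the GC box GGGCGG in 60.4% against 44.6%. These letters were chosen after expression values had been seen, and a match is a description of the window. The windows of 4 genes with large increases and of ZNF608, which decreased, are shown because all 5 hold CCAAT and are referred to in the comparisons. Capitals mark CCAAT or its reverse complement and, in ZNF367, also the E2F-like string.
ZNF367: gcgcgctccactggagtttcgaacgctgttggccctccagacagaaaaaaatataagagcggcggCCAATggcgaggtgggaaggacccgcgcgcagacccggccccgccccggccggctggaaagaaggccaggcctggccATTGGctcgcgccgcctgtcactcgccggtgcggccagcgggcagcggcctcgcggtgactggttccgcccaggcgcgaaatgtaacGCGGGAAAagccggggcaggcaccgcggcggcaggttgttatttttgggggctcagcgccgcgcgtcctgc
ZNF695: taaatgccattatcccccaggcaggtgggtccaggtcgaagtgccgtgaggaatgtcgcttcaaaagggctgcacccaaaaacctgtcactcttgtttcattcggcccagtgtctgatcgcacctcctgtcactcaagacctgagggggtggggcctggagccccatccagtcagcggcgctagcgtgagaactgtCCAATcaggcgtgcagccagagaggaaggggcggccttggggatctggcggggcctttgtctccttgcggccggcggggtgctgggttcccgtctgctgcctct
ZNF670: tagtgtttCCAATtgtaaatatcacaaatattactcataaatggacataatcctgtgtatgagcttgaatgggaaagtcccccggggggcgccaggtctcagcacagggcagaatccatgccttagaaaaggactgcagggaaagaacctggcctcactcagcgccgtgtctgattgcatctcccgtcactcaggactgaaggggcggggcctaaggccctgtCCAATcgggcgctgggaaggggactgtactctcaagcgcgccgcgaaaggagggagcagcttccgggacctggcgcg
ZNF107: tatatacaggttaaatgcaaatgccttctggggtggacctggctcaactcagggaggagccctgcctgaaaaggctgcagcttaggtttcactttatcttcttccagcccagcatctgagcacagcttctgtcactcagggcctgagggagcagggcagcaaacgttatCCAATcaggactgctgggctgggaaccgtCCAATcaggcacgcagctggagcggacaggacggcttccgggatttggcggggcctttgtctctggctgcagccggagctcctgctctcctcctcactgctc
ZNF608: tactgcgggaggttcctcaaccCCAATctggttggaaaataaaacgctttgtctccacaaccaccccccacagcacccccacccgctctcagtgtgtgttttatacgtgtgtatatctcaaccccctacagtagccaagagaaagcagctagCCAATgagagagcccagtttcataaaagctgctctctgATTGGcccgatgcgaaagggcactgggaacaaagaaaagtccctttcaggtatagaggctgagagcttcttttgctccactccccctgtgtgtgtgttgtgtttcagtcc
They lie at chr9:96418321-96418620, minus strand (ZNF367), chr1:247008008-247008307, minus strand (ZNF695), chr1:247078762-247079061, minus strand (ZNF670), chr7:64665883-64666182, plus strand (ZNF107) and chr5:124748775-124749074, minus strand (ZNF608). ZNF608, unlike the other 4, fell under doxorubicin while holding the same letters.

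The transient libraries held 5729294 to 24713822 counts and the inducible ones 18300628 to 23724398. ZMYND8 itself stood at 209 and 208 CPM (counts scaled to the size of the library) in untreated GFP cells and at 922 and 927 CPM in untreated ZMYND8 cells. In the transient libraries labelled as ZMYND8 it stood at 159.8 and 125 CPM, beside 182 and 123 CPM with doxorubicin alone and 219 and 199 CPM in the control, with no call by edgeR against doxorubicin alone (log2 fold change -0.09 ± 0.23, adjusted p = 0.9999), so that condition is called the libraries labelled ZMYND8. VIM and CD44 were present throughout, and ESR1 and PGR stayed below 1 CPM on average in each condition. EPCAM and GATA3 were not absent, and EPCAM was 37.4 and 36.97 CPM in untreated GFP cells against 11.5 and 10.2 CPM in untreated ZMYND8 cells. CDH1 went from 0.862 and 0.5801 to 10.4 and 11.02 CPM at 48 h in GFP cells and from 3.46 and 4.86 to 20.1 and 21.7 CPM in ZMYND8 cells. Among markers of other cells, CD3E and PDGFRA stayed below 1 CPM on average in each condition. The stromal gene COL1A1 was present, at 15.2 and 12.9 CPM in untreated and 22.2 and 21.5 CPM in 48 h GFP cells and at 9.05 and 7.83 and 7.197 and 8.81 CPM in the matching ZMYND8 cells, which lay below them. PTPRC went from 0.253 and 0.738 to 3.37 and 3.95 CPM in GFP cells at 48 h and from 0.0558 and 0.131 to 2.03 and 2.04 CPM in ZMYND8 cells. In the transient libraries CDH1 was at 0.954 and 1.22 CPM in the control, 1.22 and 7.93 CPM with doxorubicin and 1.69 and 9.52 CPM in those labelled ZMYND8. PTPRC was at 0 and 0, 0.521 and 1.26, and 0.507 and 2.30 CPM there. The part of these shifts in the results was not tested, and fewer cells of a type cannot be told apart from less RNA per cell in bulk samples.

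Most of the 226 genes were expressed, at low to moderate levels. Of them, 225 had at least 1 count and 205 passed the filter on low counts in the inducible experiment, and 218 and 197 did in the transient one. The median gene of those tested stood at 14.4 CPM and 16.4 CPM, respectively. The 21 genes left out of the inducible tests were ZNF80, ZNF311, ZNF423, ZNF454, ZNF469, ZNF474, ZNF479, ZNF483, ZNF648, ZNF679, ZNF683, ZNF716, ZNF722, ZNF732, ZNF735, ZNF750, ZNF831, ZNF843, ZNF853, ZNF883 and ZNF892.

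Per gene length, the highest level in the inducible cells belonged to ZNF622, a late factor of the large ribosomal subunit, at 44.6 RPKM (counts scaled to library size and gene length) averaged over its 6 conditions. ZNF593, which also acts in ribosome assembly, followed at 39.9 RPKM, ZNF22 at 32.4 RPKM and ZNF664 at 25.8 RPKM. ZNF217, an oncogene amplified in breast tumours, stood at 24.4 RPKM, ZNF367 at 23.5 RPKM and ZNF703, another breast oncogene, at 22.03 RPKM. ZNF703 was first in the transient cells at 31.2 RPKM, ahead of ZNF622 at 27.0 RPKM.

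The summed level of the 226 genes was 4571 and 4601 CPM in untreated GFP cells and 4643 and 4702 CPM after 48 h of doxorubicin. In ZMYND8 cells it was 5043 and 5097 CPM untreated and 5647 and 5625 CPM at 48 h. On this scale both ZMYND8 pairs lay above both GFP pairs, but the order depends on the TMM scaling. As a share of all counts with no such scaling, the genes took 0.432% and 0.435% in untreated GFP cells and 0.518% and 0.528% at 48 h, and 0.493% and 0.491% in untreated ZMYND8 cells and 0.627% and 0.633% at 48 h. In these shares untreated ZMYND8 cells stood between the untreated and the 48 h GFP cells, and the share was higher at 48 h than untreated in both lines.

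**Figure D1:**
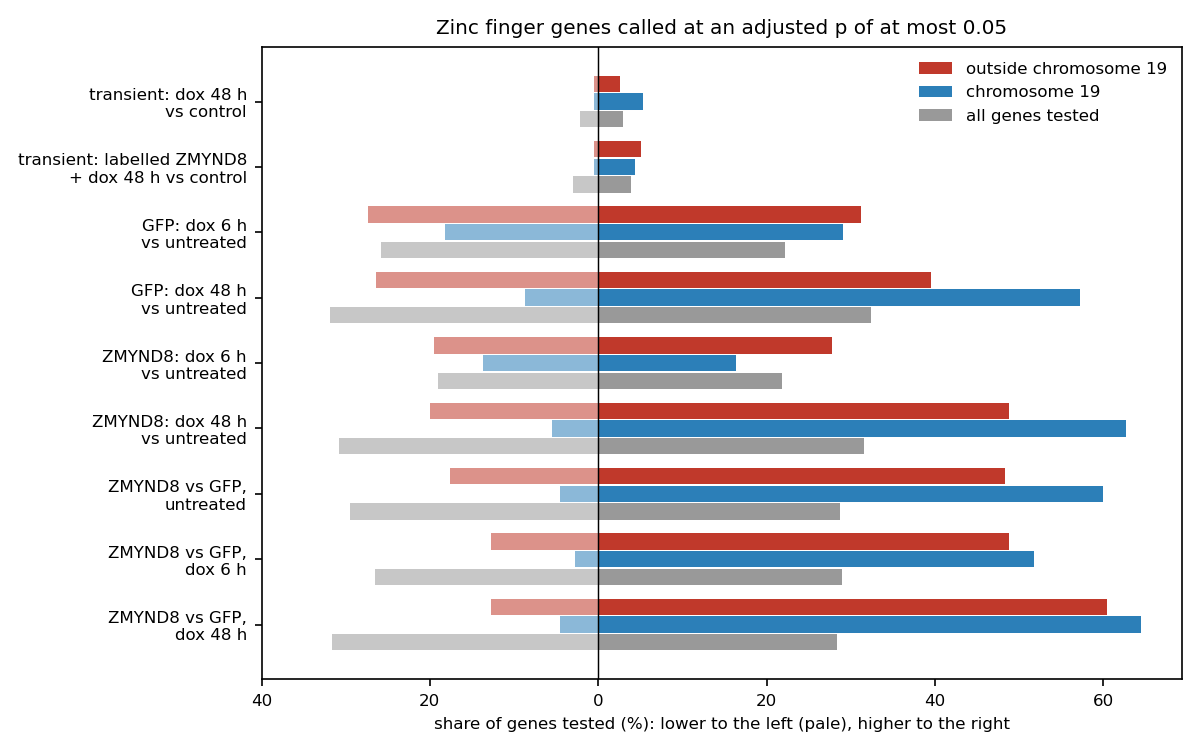
Share of tested genes called at an adjusted p of at most 0.05 (x axis, %, lower to the left and higher to the right) in 9 direct comparisons, for ZNF genes outside chromosome 19, ZNF genes on chromosome 19 and all genes tested. In the 48 h comparison of ZMYND8 with GFP cells, 124 of 205 genes outside chromosome 19 were higher and 26 lower.

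The first question was what doxorubicin did in the GFP cells. At 6 h, 64 of the 205 tested genes were higher and 56 lower at an adjusted p of at most 0.05. Over all genes tested 22.1% were higher and 25.8% lower. The genes' median log2 fold change was -0.02, beside -0.05 for all genes. Rises and falls were thus close in number at 6 h.

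ZNF367 stood at 44.4 and 43.9 CPM in untreated GFP cells, at 105 and 104 CPM after 6 h and at 103 and 104 CPM after 48 h. It rose at both times (log2 fold change 1.25 ± 0.05, adjusted p = 2.35e-17 at 6 h and 1.23 ± 0.05, adjusted p = 4.43e-18 at 48 h, ± SE). Genes named for the size of their change had to have libraries that did not overlap between the groups, so in them the lack of overlap comes from the choice. ZNF488, a transcriptional corepressor of the oligodendrocyte lineage, rose from 5.42 and 4.32 to 15.5 and 13.2 CPM at 6 h (log2 fold change 1.56 ± 0.13, adjusted p = 1.73e-10). It was at 17.6 and 15.9 CPM at 48 h. Both genes were already near their 48 h level at 6 h. ZNF124 and ZNF597 also rose at 6 h, by log2 fold changes of 1.13 ± 0.16 and 1.03 ± 0.27, and ZNF695 rose by 1.01 ± 0.29.

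Of the named genes, ZNF467 fell most at 6 h. It is known from work on bone marrow stroma as a factor that favours fat over bone cell fate, and it went from 11.3 and 14.7 CPM to 1.42 and 1.45 CPM (log2 fold change -3.18 ± 0.22, adjusted p = 1.98e-12) and was at 4.66 and 4.71 CPM at 48 h (-1.47 ± 0.18, adjusted p = 5.99e-08). Its 6 h libraries were the lowest and its 48 h libraries lay between. ZNF608 went from 31.2 and 36.9 to 7.61 and 9.26 CPM at 6 h and 12.5 and 13.04 CPM at 48 h, with log2 fold changes of -2.01 ± 0.11 and -1.41 ± 0.10. ZNF277 fell from 27.7 and 31.5 to 14.4 and 14.6 CPM and then to 11.01 and 10.9 CPM (log2 fold change -1.44 ± 0.10, adjusted p = 4.86e-13). Here the 48 h libraries were the lowest. ZNF521, a cofactor of immature blood and mesenchymal cells, fell at 6 h from 4.26 and 5.43 to 1.68 and 1.34 CPM (log2 fold change -1.68 ± 0.24, adjusted p = 1.01e-06). ZNF117 also fell at 6 h (log2 fold change -1.05 ± 0.27, adjusted p = 0.00213).

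At 48 h, 81 genes were higher and 54 lower in GFP cells, and over all genes tested 32.4% were higher and 31.8% lower. The median was 0.08 beside 0.03 for all genes and 0.38 for the 220 tested ZNF genes of chromosome 19, of which 126 were higher and 19 lower. Higher calls were 60% of the calls, and 77.1% when libraries were scaled by total counts alone. That scaling moved the median of all genes to 0.27 and that of these genes to 0.32. The excess over all genes was therefore small under both scalings.

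ZNF503, which represses GATA3 and is linked to invasion in breast cells, had the largest rise among the named genes at 48 h. It stood at 2.94 and 2.21 CPM untreated and at 11.1 and 13.3 CPM at 48 h (log2 fold change 2.24 ± 0.17, adjusted p = 6.55e-12). The pairs lay far apart, with the 6 h libraries between them at 5.35 and 3.8002 CPM. ZNF695 was at 0.811 and 0.949 CPM untreated and 3.06 and 3.07 CPM at 48 h (log2 fold change 1.80 ± 0.26, adjusted p = 7.87e-07). On its own strand, 19.5% of the exon bases of ZNF695 overlap another annotated gene, so its counts are uncertain to that extent. Larger overlaps on the same strand were found for ZNF23 (45.9%), ZNF410 (42.2%), ZNF883 (40.3%), ZNF366 (38.8%), ZNF747 (35.2%), ZNF395 (34.99%), ZNF512 (31.5%), ZNF365 (31.1%), ZNF783 (29.5%), ZNF721 (25.8%) and ZNF511 (22.1%), and their values carry the same limit. ZNF684 went from 2.18 and 2.32 to 7.19 and 8.41 CPM (log2 fold change 1.79 ± 0.19, adjusted p = 4.23e-09).

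ZNF165, a SCAN domain gene normally expressed in testis and switched on in breast tumours, stood at 1.47 and 1.42 CPM untreated, 1.63 and 1.28 CPM at 6 h and 4.75 and 4.04 CPM at 48 h. The untreated and 6 h libraries overlapped, and the 48 h libraries lay above both (log2 fold change 1.596 ± 0.21, adjusted p = 1.42e-07). ZNF785 fell (log2 fold change -1.22 ± 0.22, adjusted p = 2.67e-05), as did ZNF532 (log2 fold change -1.18 ± 0.08, adjusted p = 6.09e-13), whose values are given with the partners of ZMYND8.

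**Figure D2:**
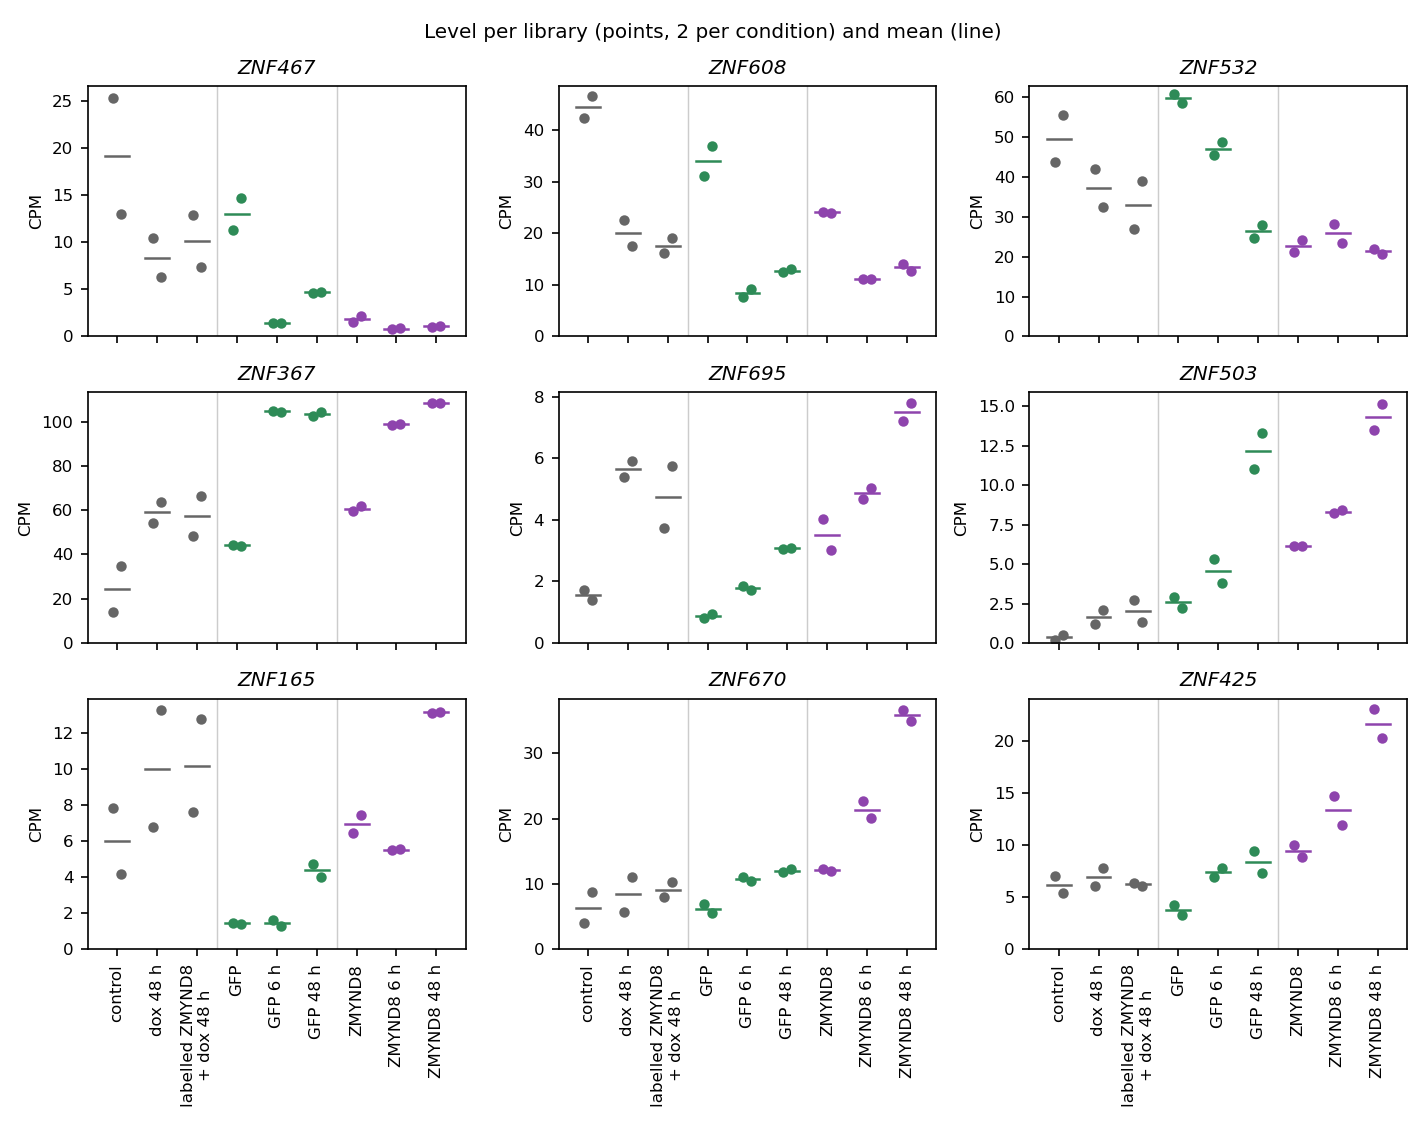
Level of 9 named genes in each library (y axis, CPM, points, 2 per condition, with the mean as a line) across the 9 conditions on the x axis. ZNF467 falls from 11.3 and 14.7 CPM in untreated GFP cells to 1.42 and 1.45 CPM at 6 h, and ZNF367 rises from 44.4 and 43.9 to 105 and 104 CPM.

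Between 6 and 48 h in GFP cells, 65 genes were higher at the later time and 43 lower (all genes 32% and 30.2%). The median was 0.10 beside 0.04. Higher calls were 60.2% of the calls and 86.6% under total-count scaling, which put the median of all genes at 0.28. Among called genes with an average log2 CPM of at least 1, ZNF467, ZNF165, ZNF503, ZNF774 and ZNF821 rose most and ZNF783, ZNF25, ZNF785, ZNF202 and ZNF485 fell most. ZNF783 was at 15.5 and 19.4 CPM at 6 h and 6.97 and 7.36 CPM at 48 h (log2 fold change -1.28 ± 0.11, adjusted p = 1.29e-10).

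In ZMYND8 cells, 6 h of doxorubicin left 57 genes higher and 40 lower, with 21.8% and 19% over all genes. The median of 0.04 compared with -0.01 for all genes. Higher calls were 58.8% of the calls but 40.8% under total-count scaling, which moved the genes' median to -0.04 and that of all genes to -0.09, a shift that all genes share. ZNF703 rose from 45.2 and 50.1 to 90.9 and 108 CPM (log2 fold change 1.06 ± 0.06, adjusted p = 5.33e-13). ZNF488 rose by 1.06 ± 0.12 on the log2 scale, ZNF672 by 0.84 ± 0.06 and ZNF670 by 0.82 ± 0.10. ZNF335, a part of histone methyltransferase complexes needed for neural progenitors, went from 33.95 and 36.3 to 63.3 and 65.2 CPM (log2 fold change 0.87 ± 0.06, adjusted p = 3.29e-12). ZNF608 fell from 24.1 and 23.98 to 11.2 and 11.1 CPM, and ZNF516 fell with a log2 fold change of -1.08 ± 0.12. ZNF467 was called lower (log2 fold change -1.14 ± 0.30, adjusted p = 0.00285), but with an adjusted p of 0.0895 without untreated ZMYND8 replicate 2. Likewise the call of ZNF658 (-1.02 ± 0.26) had an adjusted p of 0.0555 without 6 h ZMYND8 replicate 2, and that of ZNF487 (-0.99 ± 0.28) one of 0.0652 without untreated ZMYND8 replicate 1 and 0.0751 without 6 h ZMYND8 replicate 1.

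At 48 h in ZMYND8 cells, 100 genes were higher and 41 lower, beside 31.6% and 30.8% of all genes. The median was 0.24 beside 0.05 for all genes and 0.46 on chromosome 19. Higher calls made up 70.9% of the calls and 87.1% under total-count scaling, which moved the medians to 0.45 for these genes and 0.25 for all genes. ZNF670 stood at 12.3 and 12.04 CPM untreated, 22.7 and 20.1 CPM at 6 h and 36.7 and 34.9 CPM at 48 h. The 3 pairs of ZNF670 were separate and in the order of time (log2 fold change 1.56 ± 0.09, adjusted p = 7.45e-14).

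ZNF684, ZNF214, ZNF519 and ZNF620 rose as well, with log2 fold changes between 1.28 and 1.47. ZNF521 fell from 10.4 and 10.7 to 4.35 and 5.27 CPM (log2 fold change -1.14 ± 0.17, adjusted p = 2.69e-06). ZNF395, a regulator induced by low oxygen, fell from 94.9 and 96.9 to 48.4 and 43.6 CPM (log2 fold change -1.06 ± 0.05, adjusted p = 9.52e-16). ZNF25, ZNF516 and ZNF608 fell as well, with log2 fold changes of -1.10 ± 0.14, -0.93 ± 0.11 and -0.84 ± 0.10.

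From 6 to 48 h in ZMYND8 cells, 87 genes were higher and 36 lower (all genes 30.2% and 31.3%), with a median of 0.20 beside 0.04. Without 48 h ZMYND8 replicate 1 the number lower was 23. Higher calls were 70.7% of the calls and 93.7% under total-count scaling, with an all-gene median of 0.32. Of the named genes ZNF594 rose most, from 3.65 and 4.99 to 14.1 and 14.4 CPM (log2 fold change 1.72 ± 0.15, adjusted p = 1.19e-10), followed by ZNF334 at 1.28 ± 0.17, ZNF165 at 1.25 ± 0.15, ZNF519 at 1.18 ± 0.17 and ZNF774 at 1.08 ± 0.19. ZNF25 (-0.96 ± 0.14), ZNF703 (-0.94 ± 0.06), ZNF407 (-0.83 ± 0.12), ZNF207 (-0.73 ± 0.05) and ZNF202 (-0.64 ± 0.08) fell most.

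The GFP and ZMYND8 responses used different libraries and can be set side by side. Of the 81 genes higher at 48 h in GFP cells, 72 were also higher in ZMYND8 cells, which is 88.9% of the first list and 72% of the second. Over all genes tested the same shares were 70.2% and 72.1%. Of the 54 lower in GFP cells, 33 were also lower in ZMYND8 cells (61.1% and 80.5%, and 74.8% and 77.4% over all genes). In the opposite direction, ZNF282 was higher in GFP and lower in ZMYND8 cells (1.23% of the 81, and 5.01% over all genes). Another 6 genes (ZNF12, ZNF217, ZNF319, ZNF462, ZNF621 and ZNF697) were lower in GFP and higher in ZMYND8 cells (11.1% of the 54, and 4.26% over all genes). At 6 h, 45 genes were higher in both lines (70.3% and 78.9%, and 72.6% and 73.7% over all genes) and 35 lower in both (62.5% and 87.5%, and 57.3% and 77.8% over all genes). At that time 0 were called in opposite directions. Over all genes, 1.10% of those higher and 2.27% of those lower in GFP cells went the opposite way in ZMYND8 cells.

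The second question was how ZMYND8 cells differed from GFP cells. Untreated, 99 of 205 genes were higher in ZMYND8 cells and 36 lower, whereas 28.7% and 29.5% of all genes were. The median was 0.27 beside 0.00 for all genes, and it was 0.48 on chromosome 19, with 132 higher and 10 lower of 220. At 6 h of doxorubicin 100 were higher and 26 lower (all genes 28.9% and 26.6%, median 0.29). At 48 h 124 were higher and 26 lower (all genes 28.4% and 31.6%, median 0.35 beside -0.04). Total-count scaling left these medians at 0.31, 0.24 and 0.35. The higher level in the ZMYND8 line was thus present before doxorubicin and at both times after it.

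A total of 75 genes (36.6%) were higher in ZMYND8 cells at all 3 times, compared with 17.3% of all 18801 genes tested. Another 13 (6.34%) were lower at all 3, compared with 18.4%. The 13 were ZNF10, ZNF76, ZNF219, ZNF362, ZNF365, ZNF467, ZNF532, ZNF572, ZNF589, ZNF609, ZNF644, ZNF662 and ZNF740. A further 6 genes (2.93%, against 4.96% of all genes), ZNF84, ZNF207, ZNF395, ZNF608, ZNF622 and ZNF697, were higher at 1 time and lower at another. At no time were 27 called (13.2%, against 21.9%). ZNF410, an activator of the CHD4 gene, was called in none of the 9 direct inducible comparisons, with 3 to 22 counts per library and 42.2% of its exon bases shared with another gene on its strand.

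ZNF165 led the increases in untreated cells, at 6.48 and 7.44 CPM in the ZMYND8 line beside the 1.47 and 1.42 CPM of the GFP line (log2 fold change 2.27 ± 0.20, adjusted p = 1.02e-10). At 48 h it was at 13.1 and 13.2 CPM beside 4.75 and 4.04 CPM (1.58 ± 0.15, adjusted p = 4.50e-10). Every ZMYND8 library lay above every GFP library of the same time. ZNF695 was at 4.02 and 3.02 CPM in untreated ZMYND8 cells, against 0.811 and 0.949 CPM (log2 fold change 1.98 ± 0.26, adjusted p = 1.67e-07). ZNF727 was low in both lines, at 2.62 and 4.11 and, in GFP cells, 1.27 and 1.002 CPM (log2 fold change 1.58 ± 0.31, adjusted p = 8.35e-05). ZNF425, reported as a repressor of MAP kinase signalling, was at 9.996 and 8.93 CPM against 4.31 and 3.32 CPM (log2 fold change 1.30 ± 0.17, adjusted p = 1.78e-07). The ZNF425 pairs stayed apart at 48 h too, at 23.1 and 20.3 against 9.499 and 7.32 CPM.

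ZNF467 stood far below its GFP level. It was at 1.51 and 2.14 CPM in untreated ZMYND8 cells against 11.3 and 14.7 CPM in GFP cells (log2 fold change -2.80 ± 0.21, adjusted p = 4.14e-12). ZNF219, a partner of SOX9 in cartilage, was at 11.95 and 13.3 against 38.2 and 39.6 CPM (log2 fold change -1.62 ± 0.10, adjusted p = 8.80e-14). It was also lower at 48 h, at 11.2 and 9.996 against 24.3 and 25.2 CPM. ZNF821 and ZNF589 were lower, with log2 fold changes of -1.28 ± 0.26 and -0.87 ± 0.13. At 48 h ZNF326, part of the complex that couples RNA polymerase II to splicing, was lower at 50.1 and 49.6 against 77.6 and 74.9 CPM (log2 fold change -0.61 ± 0.06, adjusted p = 4.91e-10). In untreated cells ZNF326 was at 34.01 and 35.8 CPM in the ZMYND8 line and at 32.6 and 37.97 CPM in the GFP line, which overlap.

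Further named genes came from the treated cells. ZNF521 was at 1.68 and 1.34 CPM in GFP cells and 6.75 and 4.94 CPM in ZMYND8 cells at 6 h (log2 fold change 1.95 ± 0.23, adjusted p = 3.91e-08), and its untreated values were 4.26 and 5.43 and 10.4 and 10.7 CPM. ZNF727 reached 3.54 and 3.36 CPM at 48 h in ZMYND8 cells beside 0.577 and 0.925 CPM (log2 fold change 2.18 ± 0.32, adjusted p = 1.15e-06). ZNF623 stood at 3.62 and 3.74 CPM beside 1.15 and 1.35 CPM at 48 h (log2 fold change 1.55 ± 0.27, adjusted p = 1.68e-05) and at 2.85 and 3.76 beside 1.57 and 2.11 CPM without treatment (0.86 ± 0.27, adjusted p = 0.00788). At 6 h ZNF165, ZNF727 and ZNF695 were again higher in ZMYND8 cells, by log2 1.92 ± 0.20, 1.84 ± 0.34 and 1.45 ± 0.22. ZNF219 and ZNF532 were lower then (-1.39 ± 0.11 and -0.86 ± 0.08), and the lower call of ZNF467 (-0.77 ± 0.32) had an adjusted p of 0.102 without 6 h GFP replicate 1, 0.116 without 6 h GFP replicate 2, 0.219 without 6 h ZMYND8 replicate 1 and 0.0522 without 6 h ZMYND8 replicate 2. ZNF117 was higher at 6 h (log2 fold change 1.23 ± 0.27, adjusted p = 2.80e-04). ZNF319 was lower at 6 h (-0.63 ± 0.10, adjusted p = 7.12e-06), as was ZNF18 (-0.62 ± 0.23), whose adjusted p was 0.123 without 6 h GFP replicate 1 and 0.165 without 6 h ZMYND8 replicate 1, and at 48 h ZNF467 (-2.11 ± 0.24), ZNF821 (-1.13 ± 0.22) and ZNF827 (-0.60 ± 0.10) were lower.

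The 15 clusters differed in how many of their genes were called between the untreated lines. Those with the highest and the lowest medians are described, chosen after their values were seen, beside the 28.7% higher and 29.5% lower over all genes. On chromosome 7, the cluster from ZNF722 to ZNF117 (chr7:63998874-65006684, hg38) had 6 of 7 tested genes higher in untreated ZMYND8 cells and a median of 0.93. The 3 other protein-coding genes within 1 Mb had a median of -0.13. Within it, ZNF273 stood at 14.9 and 13.5 against 4.92 and 5.22 CPM (log2 fold change 1.48 ± 0.13, adjusted p = 1.03e-10) and ZNF107 at 14.9 and 12.95 against 7.65 and 6.91 CPM (0.93 ± 0.12, adjusted p = 1.47e-07). At 48 h all 7 were higher, with a median of 0.68, when 60.5% of the tested zinc finger genes outside chromosome 19 and 28.4% of all genes were higher. In the distal cluster of the same chromosome from ZNF786 to ZNF746 (chr7:149069643-149497817), 8 of 8 were higher, with a median of 0.81 beside 0.15 for 12 neighbours. The 3 genes from ZNF789 to ZNF655 (chr7:99472890-99576453) were also higher, with a median of 0.92 beside 0.29.

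On chromosome 1, the cluster from ZNF695 to ZNF496 (chr1:246945547-247331846) had 5 of 5 genes higher and a median of 0.89, against 0.35 in 7 neighbours. ZNF670 of this cluster was at 12.3 and 12.04 against 6.89 and 5.48 CPM untreated and at 36.7 and 34.9 against 11.8 and 12.2 CPM at 48 h (log2 fold change 1.58 ± 0.09, adjusted p = 4.58e-14). On chromosome 8, the genes from ZNF251 to ZNF16 had 2 of 6 higher and a median of 0.65 and their 43 neighbours one of 0.41. The cluster at the end of chromosome 12 from ZNF605 to ZNF268 (chr12:132918306-133214831) went the other way, with 4 of 7 lower and a median of -0.30. Its 13 neighbours were lower still, at -0.46. The other 9 clusters had medians between -0.02 and 0.49. Of these, that from ZNF445 to ZNF501 had 1 of 7 genes higher and 0 lower, that from ZNF397 to ZNF396 had 1 higher and 1 lower of 3, and that from ZNF619 to ZNF621 had 0 of 3 called by edgeR. Among the clusters described first, cluster and neighbour medians had the same sign on chromosomes 8, 12 and 1. On chromosome 7 they had the same sign for the clusters from ZNF786 to ZNF746 and from ZNF789 to ZNF655. The neighbours of the ZNF722 to ZNF117 cluster, 3 genes, had the opposite one.

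Over whole chromosomes, the medians ran from -0.68 on chromosome 14, with 3 genes tested, to 0.71 on chromosome 7. The genes on chromosome 7 had this median over 28 tested, beside 0.19 for the other protein-coding genes there. On chromosome 12 the values were -0.29 over 11 genes and -0.06. On chromosome 16 they were 0.33 over 26 and -0.11. The other genes of chromosome 14 had a median of -0.26. Medians on chromosomes 1, 11, 18 and 2 were 0.47, 0.50, 0.50 and 0.45 over 18, 6, 9 and 6 genes, beside 0.13, -0.14, 0.05 and 0.00 for the other genes there. Chromosome 5, with 7 genes, had -0.07 beside -0.05, and the medians of the remaining chromosomes lay between 0.01 on chromosome 3 and 0.37 on chromosome 8.

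**Figure D3:**
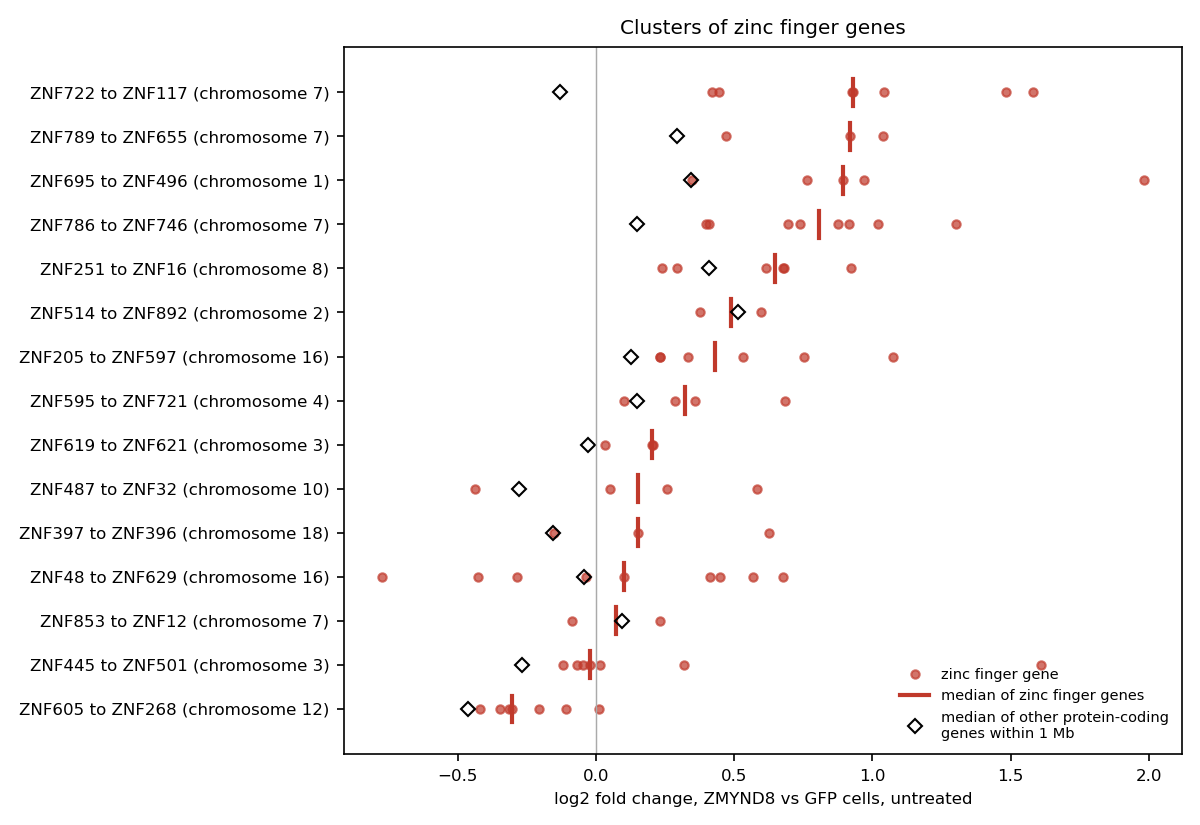
Log2 fold change of each tested gene of the 15 clusters between untreated ZMYND8 and GFP cells (x axis, points), with the cluster median (bar) and the median of other protein-coding genes within 1 Mb (diamond). The cluster from ZNF722 to ZNF117 has a median of 0.93 with neighbours at -0.13, and that from ZNF605 to ZNF268 a median of -0.30 with neighbours at -0.46.

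The last question was whether the doxorubicin response itself differed between the lines, tested as the interaction of line and treatment. At 6 h, 17 genes had a more positive and 12 a more negative response in ZMYND8 cells (all genes 7.86% and 5.52%). The more positive were 58.6% of the calls and 36.7% under total-count scaling. The number of more negative genes without 1 library was 4 (untreated GFP replicate 1), 6 (6 h GFP replicate 2), 6 (untreated ZMYND8 replicate 2), 7 (6 h ZMYND8 replicate 1) and 6 (6 h ZMYND8 replicate 2). Of the named genes ZNF467 had the highest interaction (log2 2.04 ± 0.40, adjusted p = 7.13e-04), having fallen by 3.18 in GFP cells and by 1.14 in ZMYND8 cells, where it started lower. ZNF608 and ZNF277 also fell less in ZMYND8 cells, with interactions of 0.91 ± 0.15 and 0.68 ± 0.13. ZNF703 rose by 0.24 ± 0.06 in GFP cells and 1.06 ± 0.06 in ZMYND8 cells (interaction 0.82 ± 0.09, adjusted p = 3.84e-07). ZNF367 rose less in ZMYND8 cells (interaction -0.54 ± 0.07, adjusted p = 2.91e-06). The more negative interactions of ZNF678 (-0.57 ± 0.17) and ZNF689 (-0.46 ± 0.13) had adjusted p-values of 0.132 without untreated GFP replicate 1, 0.0886 without 6 h GFP replicate 1, 0.118 without untreated ZMYND8 replicate 1 and 0.162 without 6 h ZMYND8 replicate 1, and of 0.09798 without untreated GFP replicate 1, 0.0538 without untreated ZMYND8 replicate 1 and 0.0587 without 6 h ZMYND8 replicate 1, respectively. ZNF462 had a positive interaction (0.74 ± 0.13). The calls of ZNF783 (-0.43 ± 0.14) and ZNF143 (-0.42 ± 0.13) had adjusted p-values of 0.103 without untreated GFP replicate 1, 0.0942 without untreated GFP replicate 2, 0.329 without 6 h GFP replicate 2, 0.0777 without untreated ZMYND8 replicate 1, 0.0704 without untreated ZMYND8 replicate 2, 0.0855 without 6 h ZMYND8 replicate 1 and 0.0693 without 6 h ZMYND8 replicate 2, and of 0.0941 without untreated GFP replicate 1, 0.0771 without untreated GFP replicate 2, 0.1999 without 6 h GFP replicate 2, 0.219 without untreated ZMYND8 replicate 2 and 0.121 without 6 h ZMYND8 replicate 2.

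At 48 h, 33 genes had a more positive and 13 a more negative response in ZMYND8 cells (all genes 12.7% and 15.8%), with a median interaction of 0.14 beside -0.01. The more positive were 71.7% of the calls and 59.5% under total-count scaling, and without 48 h ZMYND8 replicate 1 the more negative numbered 8. ZNF697 stood at 64.3 and 63.4 CPM in untreated GFP cells and 47.2 and 50.7 CPM at 48 h. In ZMYND8 cells it went from 46.8 and 47.8 to 82.3 and 86.4 CPM. It thus fell in one line and rose in the other (interaction 1.22 ± 0.07, adjusted p = 2.01e-12).

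ZNF462, a large finger protein needed in neural development, did the same. It went from 24.7 and 26.9 to 16.4 and 17.5 CPM in GFP cells and from 34.6 and 29.4 to 40.5 and 42.6 CPM in ZMYND8 cells (interaction 0.98 ± 0.12, adjusted p = 4.95e-07). ZNF12 went from 29.4 and 28.2 to 18.6 and 17.8 CPM and from 27.6 and 26.7 to 34.2 and 32.6 CPM (interaction 0.96 ± 0.11, adjusted p = 8.44e-08). For both genes the 48 h libraries of the ZMYND8 line were the highest. ZNF503 rose in both lines but less in ZMYND8 cells, from 6.14 and 6.17 to 13.5 and 15.1 CPM (interaction -1.02 ± 0.23, adjusted p = 0.00119). ZNF488, ZNF107 and ZNF326 had negative interactions of -0.76 ± 0.18, -0.67 ± 0.15 and -0.60 ± 0.09. The call of ZNF785 (1.08 ± 0.32) had an adjusted p of 0.0887 without untreated ZMYND8 replicate 2 and 0.0522 without 48 h ZMYND8 replicate 2. That of ZNF165 (-0.68 ± 0.25) had one of 0.1104 without untreated GFP replicate 1, 0.132 without untreated GFP replicate 2, 0.168 without 48 h GFP replicate 1, 0.1597 without untreated ZMYND8 replicate 2, 0.0966 without 48 h ZMYND8 replicate 1 and 0.0903 without 48 h ZMYND8 replicate 2.

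**Figure D4:**
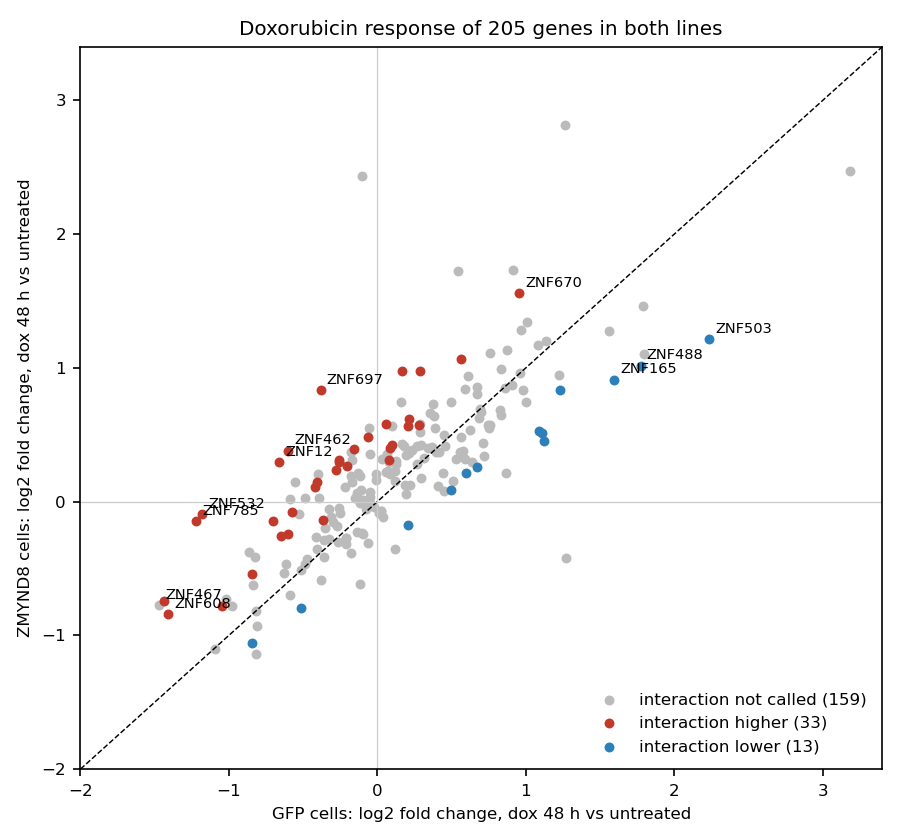
Log2 fold change at 48 h of doxorubicin in GFP cells (x axis) and ZMYND8 cells (y axis) for the 205 tested genes, with the diagonal dashed and genes with a called interaction coloured (33 higher, 13 lower). ZNF697 lies at -0.38 on the x axis and 0.83 on the y axis, and ZNF503 at 2.24 and 1.22.

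Among the 3 partners of ZMYND8, 2 were higher and 1 lower in untreated ZMYND8 cells, where 28.7% higher and 29.5% lower over all genes were called. ZNF687 stood at 59.6 and 65.9 CPM against 45.9 and 40.8 CPM in GFP cells (log2 fold change 0.54 ± 0.06, adjusted p = 4.21e-08), and ZNF592 at 80.3 and 80.8 against 59.3 and 54.2 CPM (0.51 ± 0.06, adjusted p = 2.04e-08). Neither pair overlapped. ZNF532 went the other way, at 21.2 and 24.1 against 60.8 and 58.5 CPM (log2 fold change -1.39 ± 0.08, adjusted p = 5.21e-14). In GFP cells ZNF532 was at 45.5 and 48.7 CPM at 6 h and 24.7 and 27.9 CPM at 48 h of doxorubicin, whereas in ZMYND8 cells it was at 28.3 and 23.4 and 21.9 and 20.8 CPM. The fall at 48 h was seen in GFP cells (-1.18 ± 0.08, adjusted p = 6.09e-13), the value in ZMYND8 cells was -0.09 ± 0.09, adjusted p = 0.388, and the interaction was 1.09 ± 0.12, adjusted p = 8.66e-08. The difference between lines at 48 h was smaller (-0.31 ± 0.09, adjusted p = 0.00392), with an adjusted p of 0.09501 without 48 h GFP replicate 2.

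Of the 5 tested genes linked to DNA damage, 3 rose and 1 fell in GFP cells at 48 h, with a median of 0.28 beside 0.03 for all genes (32.4% higher and 31.8% lower). ZNF451, the SUMO ligase that helps TDP2 to clear trapped topoisomerase II, stood at 83.9 and 83.8 CPM untreated and 82.9 and 87.99 CPM at 48 h (log2 fold change 0.03 ± 0.05, adjusted p = 0.669). ZNF668, a factor in homologous recombination, rose from 12.8 and 9.91 to 17.001 and 18.4 CPM (log2 fold change 0.64 ± 0.12, adjusted p = 2.81e-05). ZNF827, which recruits NuRD at telomeres and binds RPA at stalled forks, fell from 22.8 and 21.9 to 14.1 and 14.8 CPM (log2 fold change -0.63 ± 0.10, adjusted p = 2.39e-06). ZNF830 was called higher (0.28 ± 0.09), with an adjusted p of 0.132 without 48 h GFP replicate 1. ZNF365, which guards fragile sites, was low at 1.17 and 1.37 CPM and 2.22 and 2.57 CPM, and its call had an adjusted p of 0.116 without untreated GFP replicate 1 and 0.1197 without 48 h GFP replicate 2. In untreated ZMYND8 cells it was lower than in GFP cells, at 0.112 and 0.219 CPM (log2 fold change -2.85 ± 0.51, adjusted p = 2.44e-05). Such levels rest on few counts, so the size of this difference is uncertain.

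Of the 6 tested breast tumour regulators, 1 rose (ZNF503) and 4 fell in GFP cells at 48 h, with a median of -0.31 beside 0.03 for all genes (32.4% higher and 31.8% lower). ZNF703 went from 82.3 and 81.5 to 62.1 and 60.3 CPM (log2 fold change -0.42 ± 0.06, adjusted p = 1.74e-06), after being higher at 6 h at 98.3 and 94.6 CPM. ZNF652, a corepressor partner of CBFA2T3, fell (log2 fold change -0.48 ± 0.09, adjusted p = 4.70e-05), as did ZNF521 (-0.82 ± 0.21, adjusted p = 0.00109). ZNF217 went from 151 and 162 to 138 and 134 CPM (log2 fold change -0.21 ± 0.04, adjusted p = 2.07e-04), and under total-count scaling its change had the opposite sign. In ZMYND8 cells ZNF217 went from 158 and 156 to 188 and 189.7 CPM (0.26 ± 0.04, adjusted p = 7.33e-06). ZNF281, a factor in stem cells and epithelial to mesenchymal transition, was higher in ZMYND8 than in GFP cells at all 3 times, by log2 0.27 ± 0.07 untreated and 0.43 ± 0.06 at 48 h.

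Of the 6 genes of ribosome and RNA function, 4 were higher and 1 lower in untreated ZMYND8 cells, with a median of 0.23 beside 0.00 for all genes (28.7% higher and 29.5% lower). ZNF593 stood at 29.8 and 32.1 against 17.1 and 17.03 CPM in GFP cells (log2 fold change 0.86 ± 0.08, adjusted p = 5.48e-10), with no overlap. ZNF598, the ligase that marks collided ribosomes, was at 92.3 and 86.6 against 74.6 and 68.2 CPM (log2 fold change 0.32 ± 0.06, adjusted p = 1.66e-05), and ZNF706 was higher by 0.37 ± 0.05. ZNF638, which silences unintegrated retroviral DNA with the HUSH complex, had a smaller difference of 0.13 ± 0.05, with an adjusted p of 0.114 without untreated GFP replicate 1, 0.106 without untreated GFP replicate 2, 0.0692 without untreated ZMYND8 replicate 1 and 0.0867 without untreated ZMYND8 replicate 2. ZNF346, which binds double-stranded RNA, stood at 24.8 and 24.3 against 23.5 and 21.1 CPM (0.14 ± 0.08, adjusted p = 0.159). ZNF622 rose at 6 h in both lines, from 65.9 and 65.4 to 92.1 and 93.1 CPM in GFP cells (log2 fold change 0.50 ± 0.05, adjusted p = 1.09e-09) and from 58.6 and 58.7 to 92.5 and 89.9 CPM in ZMYND8 cells (0.64 ± 0.05, adjusted p = 2.14e-11).

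Of the 8 genes of general transcription, chromatin and mitosis, 5 rose and 2 fell at 6 h in GFP cells, with a median of 0.22 beside -0.05 for all genes (22.1% higher and 25.8% lower). ZNF335 went from 29.96 and 30.7 to 57.7 and 58.3 CPM (log2 fold change 0.94 ± 0.06, adjusted p = 6.76e-13). ZNF131, which holds an E2F-like string in its promoter window, went from 60.4 and 63.1 to 88.7 and 89.3 CPM (0.53 ± 0.05, adjusted p = 1.66e-09). ZNF143, an activator of small nuclear RNA and housekeeping promoters, went from 19.97 and 20.1 to 26.2 and 30.4 CPM (0.50 ± 0.10, adjusted p = 1.01e-04). ZNF644, a partner of the H3K9 methyltransferases G9a and GLP, went from 83.8 and 89.4 to 105 and 107 CPM (0.29 ± 0.05, adjusted p = 4.79e-05). ZNF148 fell (log2 fold change -0.37 ± 0.06, adjusted p = 4.73e-06). The rise of ZNF207, a kinetochore and spindle protein (0.14 ± 0.05), had an adjusted p of 0.0553 without untreated GFP replicate 1, 0.0629 without untreated GFP replicate 2 and 0.121 without 6 h GFP replicate 1.

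Of the SCAN domain genes on the list used here, untreated ZMYND8 cells had 8 higher and 1 lower of 14 tested (median 0.41), and 10 and 1 at 48 h (median 0.61, all genes -0.04). Of all genes 28.7% higher and 29.5% lower were called untreated and 28.4% higher and 31.6% lower at 48 h, and 48.3% and 60.5% of the tested zinc finger genes outside chromosome 19 were higher. The list was not complete, and other SCAN domain genes such as ZNF197, ZNF287 and ZNF215 are not in these counts. Untreated, those 3 had log2 differences of -0.07 ± 0.08, adjusted p = 0.488, 0.27 ± 0.19, adjusted p = 0.225 and -0.01 ± 0.11, adjusted p = 0.975. At 48 h they had 0.08 ± 0.07, adjusted p = 0.377, 0.25 ± 0.17, adjusted p = 0.213 and -0.36 ± 0.10, adjusted p = 0.00291, so that none of them was higher at either time and ZNF215 was lower at 48 h. ZNF165 led the genes of the list. Of the others, ZNF445, which guards imprinted methylation, stood at 47.8 and 47.98 against 42.7 and 44.8 CPM at 48 h (0.13 ± 0.07, adjusted p = 0.1102). ZNF500, ZNF232, ZNF202 and ZNF18 had log2 fold changes of -0.46 ± 0.13, 1.10 ± 0.12, 0.97 ± 0.09 and -0.35 ± 0.22 at 48 h, with adjusted p-values of 0.00322, 9.68e-09, 1.98e-10 and 0.184. Untreated, ZNF263 stood at 33.3 and 37.3 against 24.2 and 24.8 CPM (log2 fold change 0.53 ± 0.08, adjusted p = 9.92e-07) and ZNF394 at 20.8 and 21.1 against 15.6 and 14.6 CPM (0.47 ± 0.10, adjusted p = 3.30e-04). In untreated cells, the call of ZNF397 was lost without untreated GFP replicate 1. That of ZNF24, the one lower gene, was lost without untreated GFP replicate 2 and without untreated ZMYND8 replicate 1. At 48 h the call of ZNF174 was lost without 48 h GFP replicate 1, 48 h GFP replicate 2 or 48 h ZMYND8 replicate 1. That of ZNF213 was lost without 48 h GFP replicate 2, and that of ZNF496 without 48 h GFP replicate 1. The call of ZNF396 was lost without 48 h GFP replicate 2 or 48 h ZMYND8 replicate 2.

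Genes with the KRAB pattern had higher medians than those without it in the ZMYND8 comparisons. Untreated, 38 of 69 genes with the pattern were higher and 7 lower (median 0.40), compared with 61 and 29 of 136 without it (median 0.22), and 28.7% higher and 29.5% lower over all genes. At 48 h the medians were 0.51 and 0.26. For doxorubicin at 48 h they were 0.10 and 0.03 in GFP cells and 0.32 and 0.21 in ZMYND8 cells. The pattern misses known KRAB genes such as ZNF10, so the group without it holds some of them. A looser letter pattern, added after the data were seen, also took ZNF10, ZNF107, ZNF138, ZNF287, ZNF510 and ZNF624 among the tested genes and gave 0.38 and 0.22 for untreated cells. Genes with the pattern on chromosome 19 had a median of 0.50, and those without it there 0.37. These are descriptions with no test of the difference.

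A list of 19 genes covered KRAB repression and other factors of gene silencing and DNA methylation, measured here as RNA. Of them 8 were higher and 8 lower in GFP cells at 48 h of doxorubicin. In ZMYND8 against GFP cells at that time 3 were higher and 8 lower. Of all genes, 32.4% and 31.8% were called in the first comparison and 28.4% and 31.6% in the second, and the medians of the list were -0.11 and -0.06. TRIM28 stood at 283 and 286 CPM in untreated GFP cells and 335 and 342 CPM in untreated ZMYND8 cells (log2 fold change 0.25 ± 0.04, adjusted p = 1.18e-05). At 48 h it was not higher in ZMYND8 cells, at 352 and 348 CPM beside 380 and 351 CPM in GFP cells. SETDB1 differed by 0.16 ± 0.08, adjusted p = 0.0783. UHRF1, which guides DNA methylation upkeep, rose in GFP cells at 48 h (log2 fold change 1.66 ± 0.05, adjusted p = 1.21e-19). Going the other way there, ATRX went from 96.5 and 97.2 to 34.3 and 39.8 CPM and ATF7IP from 104 and 102 to 52.5 and 53.3 CPM.

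Genes with CCAAT in the promoter window had higher medians than those without it. In GFP cells at 48 h, 40 of 80 genes with CCAAT were higher and 13 lower (median 0.29), against 33 and 31 of 92 without it (median 0.02). The shares over all genes were 32.4% higher and 31.8% lower. Other protein-coding genes had medians of 0.07 and -0.04. In untreated ZMYND8 against GFP cells the medians were 0.42 and 0.11, and 0.03 and -0.02 for the other protein-coding genes. ZNF695, ZNF670 and ZNF107, whose windows are printed above, were among those higher in both comparisons, and ZNF608 was lower in both. For the ETS string the medians in GFP cells at 48 h were 0.06 with it and 0.12 without it, and between the untreated lines 0.21 with it and 0.27 without it. For the GC box these medians were 0.09 with it and 0.14 without it, and 0.28 with it and 0.22 without it. CCAAT and the E2F-like string were singled out after the expression values were seen. The E2F-like string was held by 9 genes (ZNF74, ZNF131, ZNF214, ZNF367, ZNF502, ZNF597, ZNF644, ZNF687 and ZNF892), of which 4 of 8 tested rose and 0 fell at 6 h in GFP cells, beside 22.1% higher and 25.8% lower over all genes. At 48 h of doxorubicin ZNF131, ZNF214, ZNF367, ZNF502 and ZNF597 were higher in both lines, and ZNF74 and ZNF644 were lower in both.

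The response also varied with gene span. The genes were divided by span into 4 classes of near equal size, with the longest class at 47056 bases or more. In that class the median at 6 h in GFP cells was -0.18, with 13 higher and 21 lower of 51, beside 22.1% higher and 25.8% lower over all genes. The shortest class, up to 13897 bases, had a median of -0.02 (18 and 15 of 52), the second one of 0.07 (17 and 7 of 51) and the next one of 0.11 (16 and 13 of 51). At 48 h the longest class stood at -0.13 in GFP cells and -0.04 in ZMYND8 cells, while the other classes lay between 0.08 and 0.19 and between 0.28 and 0.33, respectively. Other protein-coding genes of the longest class had medians of -0.12, -0.13 and -0.19 in these 3 comparisons. ZNF608 and ZNF532, described above, belong to the longest class.

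**Figure D5:**
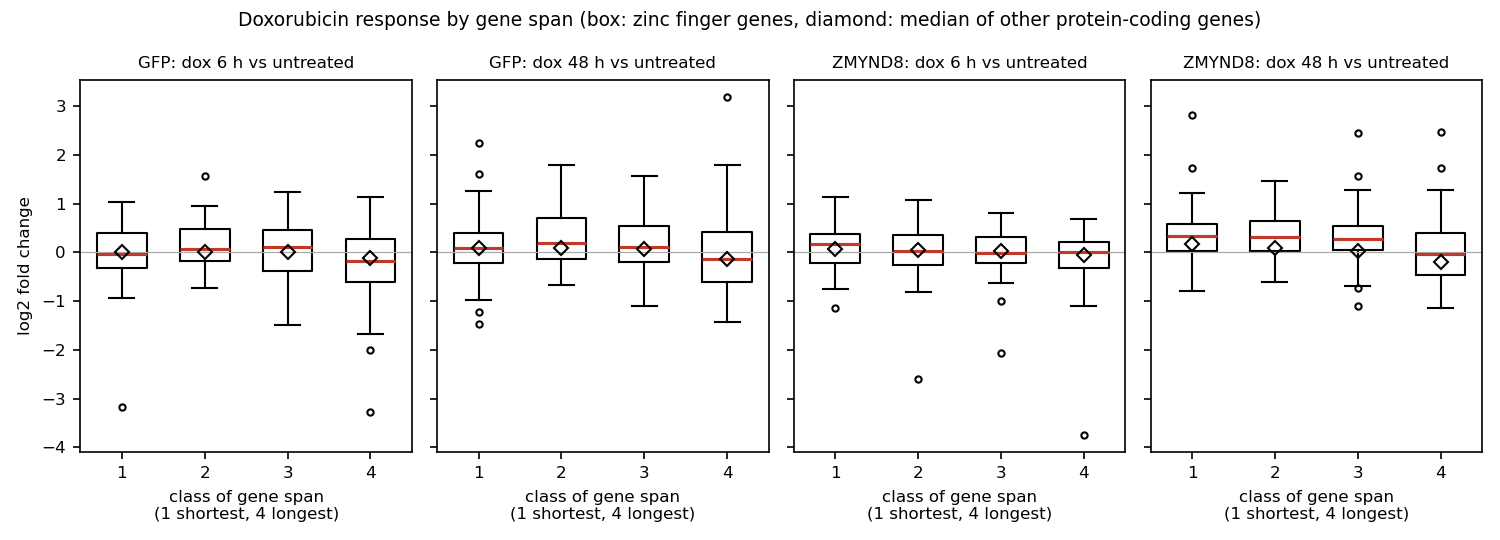
Log2 fold change (y axis) by class of gene span (x axis, 1 shortest to 4 longest) in 4 doxorubicin comparisons. Boxes show the quartiles, whiskers reach up to 1.5 times the interquartile range and circles lie beyond them. Diamonds give the median of other protein-coding genes in the same span range. In GFP cells at 48 h the longest class has a median of -0.13.

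A pair of neighbouring genes that start within 1 kb of each other on opposite strands occurred 4 times. ZNF425 and ZNF398 start 92 bases apart, ZNF891 and ZNF10 (KOX1, the source of the KRAB domain used in gene repression tools) 102 bases apart, ZNF668 and ZNF646 182 bases apart, and ZNF514 and ZNF2 19 bases apart. Promoter windows of the plus-strand gene are shown for 3 pairs, with the bases shared with the partner's window in capitals. The distances are between GENCODE gene starts and the windows were placed on RefSeq starts, so the shared bases need not match the distances.
ZNF398: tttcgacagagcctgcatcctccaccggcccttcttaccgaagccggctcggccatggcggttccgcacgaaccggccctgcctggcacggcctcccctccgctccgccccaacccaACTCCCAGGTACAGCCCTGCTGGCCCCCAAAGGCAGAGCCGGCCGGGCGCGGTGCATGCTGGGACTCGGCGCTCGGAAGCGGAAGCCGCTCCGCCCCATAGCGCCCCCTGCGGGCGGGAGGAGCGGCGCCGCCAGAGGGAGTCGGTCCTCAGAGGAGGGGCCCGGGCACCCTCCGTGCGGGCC
ZNF10: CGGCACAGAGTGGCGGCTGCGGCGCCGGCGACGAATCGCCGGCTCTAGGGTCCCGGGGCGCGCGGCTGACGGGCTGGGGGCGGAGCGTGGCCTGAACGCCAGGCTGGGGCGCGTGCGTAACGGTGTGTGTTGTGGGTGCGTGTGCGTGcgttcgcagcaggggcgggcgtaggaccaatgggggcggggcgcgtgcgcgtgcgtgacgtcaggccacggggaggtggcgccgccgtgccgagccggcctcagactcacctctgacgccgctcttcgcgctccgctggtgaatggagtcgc
ZNF646: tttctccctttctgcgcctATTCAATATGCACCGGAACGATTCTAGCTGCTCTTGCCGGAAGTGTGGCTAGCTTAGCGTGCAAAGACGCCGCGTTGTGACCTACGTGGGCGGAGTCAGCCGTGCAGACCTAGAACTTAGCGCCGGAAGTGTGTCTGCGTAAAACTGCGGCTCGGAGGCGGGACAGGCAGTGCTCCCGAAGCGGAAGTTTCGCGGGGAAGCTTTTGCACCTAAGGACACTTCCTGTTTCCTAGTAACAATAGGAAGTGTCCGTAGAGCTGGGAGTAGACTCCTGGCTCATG
They lie at chr7:149126158-149126457, plus strand (ZNF398), chr12:133130377-133130676, plus strand (ZNF10) and chr16:31074172-31074471, plus strand (ZNF646), in RefSeq GRCh38.p14, and share 183, 148 and 281 bases with the partner. In GFP cells at 48 h, ZNF425 rose (log2 fold change 1.13 ± 0.17, adjusted p = 1.50e-06) while ZNF398 stood at 15.7 and 16.3 CPM untreated and 15.5 and 15.9 CPM treated (adjusted p = 0.831). ZNF10 rose from 7.45 and 8.07 to 16.3 and 13.9 CPM (log2 fold change 0.96 ± 0.12, adjusted p = 1.09e-07) and ZNF891 had a value of -0.12 ± 0.18, adjusted p = 0.578. ZNF514 fell (-0.60 ± 0.09, adjusted p = 1.91e-06) while ZNF2 rose (0.90 ± 0.13, adjusted p = 5.82e-07). ZNF668 and ZNF646 both rose, by 0.64 ± 0.12 and 0.62 ± 0.07. In ZMYND8 against GFP cells without doxorubicin, ZNF425 and ZNF398 were both higher (1.30 ± 0.17 and 0.70 ± 0.09), as were ZNF668 and ZNF646. ZNF10 was lower there while ZNF891 was not called, and ZNF514 was higher. Thus in 3 of the 4 pairs 1 partner was called higher in GFP cells at 48 h and the other was not, with no test of the difference between partners. In that comparison 39.5% of the tested zinc finger genes outside chromosome 19 were higher and 26.3% lower, and 32.4% and 31.8% of all genes.

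In the transient experiment fewer genes were called. Doxorubicin for 48 h gave 5 genes higher and 1 lower of 197 (all genes 2.98% and 2.15%), with a median of 0.17 beside 0.00 for all genes. Same-numbered transient libraries deviated together, and with the replicate number as a block the counts were 21 and 8. ZNF107 stood at 5.91 and 10.3 CPM in the control and 22.1 and 22.9 CPM after doxorubicin (log2 fold change 1.47 ± 0.30, adjusted p = 0.0205). ZNF620 was at 3.82 and 1.91 and 11.1 and 10.03 CPM (1.88 ± 0.38, adjusted p = 0.0212), and ZNF608 at 42.4 and 46.6 and 22.6 and 17.5 CPM (-1.17 ± 0.23, adjusted p = 0.0191). ZNF695, ZNF519 and ZNF718 were also higher. All 5 higher genes and ZNF608 were called in the same direction in GFP cells at 48 h, which is 100% of these lists and 6.17% and 1.85% of the GFP lists (93.6% and 90.5%, and 7.19% and 5.095%, over all genes).

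The numbers of calls moved in both directions when single libraries were left out. Each such fit left a condition without a replicate, so dependence on that library cannot be told apart from the lost replicate. The number of higher genes was 2 without transient control replicate 1, 3 without doxorubicin replicate 1 and 0 without doxorubicin replicate 2, which held 24713822 counts. The number of lower genes was 2 and 3 without control replicates 1 and 2 and 0 without doxorubicin replicate 2. ZNF107 had an adjusted p of 0.0775 without transient control replicate 1 and 0.105 without transient doxorubicin replicate 2, and ZNF608 one of 0.196 without transient doxorubicin replicate 2. ZNF620 had one of 0.0702 without transient control replicate 2 and 0.0847 without transient doxorubicin replicate 2.

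The libraries labelled ZMYND8 with doxorubicin had 10 genes higher and 1 lower than the control (all genes 3.85% and 2.97%, median 0.14), and with the replicate block 24 and 10. Of the named genes ZNF684 rose most, from 2.29 and 2.96 to 7.95 and 8.54 CPM (log2 fold change 1.64 ± 0.38, adjusted p = 0.0273), and ZNF608 was lower at 16.2 and 19.04 CPM (-1.33 ± 0.24, adjusted p = 0.0108). ZNF620, ZNF273, ZNF107 and ZNF519 were also called higher, with log2 fold changes of 1.52, 1.35, 1.34 and 1.33. The adjusted p of ZNF608 was 0.09201 without labelled ZMYND8 replicate 1. Without labelled ZMYND8 replicate 1 or 2 the number higher was 0, and without control replicate 1 it was 2. The number lower was 0 without labelled ZMYND8 replicate 1, 3 without control replicate 1 and 2 without either doxorubicin replicate. ZNF684 had an adjusted p of 0.112 without labelled ZMYND8 replicate 1, 0.124 without labelled ZMYND8 replicate 2, 0.0927 without transient control replicate 1 and 0.0535 without transient control replicate 2.

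Between the libraries labelled ZMYND8 with doxorubicin and those with doxorubicin alone, 0 of 197 genes were called by edgeR (0% higher and 0% lower over all genes). At an unadjusted p under 0.05 the number was also 0, with 54 among all genes tested, and DESeq2 called 0. The median was 0.00. Replicate 2 of these conditions differed from each other by little more than counting noise (chi-square per degree of freedom 1.39, against 9.71 to 55.6 in other transient pairs). Without both, the counts against the control were 3 higher for doxorubicin alone and 0 for the libraries labelled ZMYND8. The transient counts also do not separate strands. Genes lying within the exons of an opposite-strand gene of at least 20 CPM had a median count density 1.46 to 1.64 times that of the gene around them, compared with 0.0636 to 0.103 times in the inducible table. Of the 226 genes, 72 (31.9%) overlap an exon of another gene on the opposite strand, and among the genes without such overlap 3 were higher with doxorubicin.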

How the data were processed

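RNA sequencing of MDA-MB-231 cells was analysed from 2 count tables, 1 for the 6 transient and 1 for the 12 inducible libraries. The deposited values are raw counts of reads per gene that the authors made with featureCounts 1.6.4 and GENCODE 31 on hg38. The submitters' processing notes also name Trim Galore, HISAT2 and DESeq2, whereas the study's methods name TopHat and Cuffdiff. All count columns were mapped to samples, and 0 were left unmapped.

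Genes were tested with edgeR 4.0.16 in R 4.3.3 (TMM scaling, filterByExpr, quasi-likelihood F test) on each whole table, with 14 comparisons and Benjamini-Hochberg adjustment over all genes tested. A gene was called at an adjusted p of at most 0.05. The standard error of a log2 fold change was taken as its size divided by the root of F. CPM values are TMM-normalised. An exact permutation test of 2 against 2 libraries cannot give a two-sided p below 0.333. The scripts were tested on simulated data. DESeq2 1.42.0, other scalings and filters, a replicate block, another cutoff and leaving out each library were tried as alternatives. Leaving out a library left its condition without a replicate, so the spread then came from the other conditions only. Leaving out replicate 2 of both treated transient conditions did the same to each of them. Same-numbered transient libraries deviated together (r 0.195 to 0.478 in 3 pairs of conditions), and inducible ones did not (-0.237 to 0.141).

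For each comparison the text names, of genes called with an average log2 CPM of at least 1 and no overlap between libraries, the 5 with the largest rise and the 5 with the largest fall, and the genes of the role lists where their values are given. SCAN genes outside the role list, and genes named for clusters, promoter motifs, divergent starts or opposite directions, were chosen after their values were seen. The members and lists were chosen with earlier results of these data known. Fingers and KRAB domains were matched as letter patterns in translated GENCODE 44 coding sequences, in place of the planned RefSeq proteins. Exon overlaps were found with bedtools 2.31.1. Counting intervals are not given, and depth is stated as total counts per library.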

Additional observations from a re-analysis of the deposited data

Results flagged for a closer look

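The results listed here are those in which the response to doxorubicin differed between the ZMYND8 and GFP lines by the interaction test in edgeR (adjusted p of at most 0.05), among the named genes. Values are the log2 response in ZMYND8 cells minus that in GFP cells. There was 1 line per construct, so line and construct cannot be told apart.

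At 6 h, the response was more positive in ZMYND8 cells for ZNF207 (0.35), ZNF277 (0.68), ZNF395 (0.34), ZNF462 (0.74), ZNF467 (2.04), ZNF532 (0.53), ZNF608 (0.91), ZNF697 (0.41), ZNF703 (0.82) and ZNF827 (0.60). It was more negative for ZNF131 (-0.25), ZNF143 (-0.42), ZNF326 (-0.30), ZNF367 (-0.54), ZNF678 (-0.57), ZNF689 (-0.46) and ZNF783 (-0.43).

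At 48 h, the response was more positive in ZMYND8 cells for ZNF12 (0.96), ZNF217 (0.47), ZNF219 (0.40), ZNF24 (0.23), ZNF277 (0.70), ZNF319 (0.57), ZNF462 (0.98), ZNF532 (1.09), ZNF594 (0.69), ZNF608 (0.57), ZNF622 (0.32), ZNF670 (0.61), ZNF697 (1.22), ZNF703 (0.53) and ZNF785 (1.08). It was more negative for ZNF107 (-0.67), ZNF143 (-0.38), ZNF165 (-0.68), ZNF273 (-0.56), ZNF326 (-0.60), ZNF367 (-0.39), ZNF395 (-0.22), ZNF488 (-0.76) and ZNF503 (-1.02). Genes on both lists with the same direction were ZNF277, ZNF462, ZNF532, ZNF608, ZNF697 and ZNF703 (more positive) and ZNF143, ZNF326 and ZNF367 (more negative), while ZNF395 changed direction. The 6 h and 48 h tests share the untreated libraries. With a library left out, the 6 h calls of ZNF143, ZNF678, ZNF689 and ZNF783 were lost in some fits, as described above. So were the 48 h calls of ZNF165 and ZNF785.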

How the results depend on the processing

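The number of genes called higher and lower kept within 1.5 times of the values above under scaling by DESeq2 size factors in edgeR, in all 14 comparisons, and the settings below moved some of them; the cause was not tested. With the DESeq2 Wald test, transient doxorubicin gave 8 and 4, the labelled ZMYND8 libraries 4 lower, ZMYND8 cells 26 lower at 48 h and 22 lower from 6 to 48 h, and the interactions 11 and 7 at 6 h and 21 and 8 at 48 h. With at least 10 counts in every library, 19 were lower from 6 to 48 h in ZMYND8 cells. With no filter on low counts the transient comparisons gave 11 and 5 for doxorubicin and 5 lower for the labelled ZMYND8 libraries. Among genes with no opposite-strand exon overlap, 3 and 6 were higher in these 2 comparisons, and without both close libraries, a choice made after seeing the data, 3 and 0.

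With the replicate number as a block, the transient counts were 21 higher and 8 lower for doxorubicin and 24 and 10 for the labelled ZMYND8 libraries. In the inducible cells, where numbers did not pair the libraries, the block moved no count of calls by over 1.5 times.

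Under total-count scaling, 8 genes were higher with transient doxorubicin, 33 lower in GFP cells at 48 h, 129 higher and 20 lower from 6 to 48 h there, 19 lower in ZMYND8 cells at 48 h, 149 and 10 from 6 to 48 h there, and 11 and 19 in the 6 h interaction. The change at 48 h in GFP cells turned to 0.038 for ZNF217, 0.111 for ZNF598 and 0.037 for ZNF638.

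With a cutoff on unadjusted p and fold in place of the adjusted p (unadjusted p of at most 0.05 and an absolute log2 fold change of at least 1 in the transient and 1.5 in the inducible experiment), the numbers higher and lower were 12 and 3 for transient doxorubicin, 4 lower for the labelled ZMYND8 libraries, 1 and 3, 7 and 0 and 3 and 0 in GFP cells at 6 h, 48 h and from 6 to 48 h, 0 and 2, 6 and 0 and 5 and 0 in ZMYND8 cells, 4 and 6, 3 and 3 and 6 and 4 between the lines untreated, at 6 h and at 48 h, and 1 and 2 and 2 and 1 in the interactions.

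When 1 library at a time was left out, the number higher ranged over 0 to 7 and lower over 0 to 3 for transient doxorubicin, 0 to 8 and 0 to 3 for the labelled ZMYND8 libraries, 12 to 16 and 4 to 11 for the 6 h interaction, 23 to 35 and 8 to 15 for the 48 h interaction and 67 to 84 and 23 to 37 from 6 to 48 h in ZMYND8 cells. Among single-gene results, leaving out a library ended 224 of the calls and added 39, with 6220 on the same side of the threshold, and the other settings ended 72, added 49, reversed 3 and left 3409. Genes with few counts are the least precise, and 2 libraries per condition limit every comparison.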
